A study of Mus musculus with 8 samples.

Results

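Type I interferon-stimulated antiviral genes encode the sensors, enzymes and restriction factors with which a cell answers a virus. Here 40 such genes, chosen by symbol for their known function, were followed in mouse macrophages grown from bone marrow. Every probe carrying a member's symbol was taken, which gave 78 probes for 39 members. A probe was kept when its signal exceeded the array's negative controls (detection p under 0.01) on at least 2 of the 8 arrays. By that rule 66 probes of 36 members were kept, among 8306 genes that could be tested on these arrays. Of the other members, Ifit1, Nmi and Xaf1 had probes that were detected on 0 arrays, and Ifi44 was not analysed here. The kept probe of 31 members was detected on all 8 arrays. Ifih1, Oas1b, Mx1, Parp9 and Isg20 passed through LPS arrays only, so for these 5 a higher signal with LPS follows in part from the filter.

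Cells came from 10-week-old male mice, either wild type or labelled Bcl6-/-, both on the c57Bl6/J background, and were left unstimulated or treated with LPS, the bacterial lipid sensed through Tlr4. Bcl6 is a zinc-finger repressor of transcription. The labels name neither the deleted part of Bcl6 nor the number of mice, and the sources used here give no dose or duration of the LPS treatment. Each of the 4 groups was read on 2 single-colour Illumina bead arrays that the labels call technical replicates, so n = 2 arrays a group throughout and p-values cover only the spread between such arrays, not between mice or cultures. In bulk RNA, fewer cells of a type and less RNA per cell cannot be told apart.

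The Bcl6 probe did not lose its signal in the labelled knockout. Its log2 signal was 10.95 and 10.92 in wild type unstimulated, 10.75 and 10.99 in wild type with LPS, 12.60 and 12.33 in the unstimulated labelled knockout and 9.92 and 9.93 in the labelled knockout with LPS. Whether the probe lies outside the deleted part was not tested, so it does not settle the genotype, and every direction below refers to arrays labelled knockout. Macrophage markers had kept probes for 7 of 9 genes. The log2 of their summed signal was 16.63 to 17.05 on all arrays. Lyz2 and Cd14 were the brightest of these markers, so the sum says little of the dimmer ones. The 6 conventional dendritic cell, 7 T and NK cell, 3 B cell and 5 fibroblast markers with a probe were detected on 0 arrays.

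Infected or LPS-treated cells secrete type I interferon. It binds the receptor chains Ifnar1 and Ifnar2, and the kinases Jak1 and Tyk2 then activate a complex of Stat proteins with Irf9. That complex binds the interferon-stimulated response element, or ISRE, near the start of target genes. In macrophages LPS reaches the same genes through Tlr4, the adaptor Ticam1 and the factor Irf3, which induces interferon-beta and can itself act on the ISRE.

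Promoter sequence was examined to describe the members. They were listed as interferon-stimulated genes, so their share with the ISRE core describes that list and is no evidence about the LPS response. RefSeq promoters on the GRCm38.p6 build, covering 250 bases before to 50 after the start, were at hand for 29 members. The ISRE core, here GAAA, then 2 bases of any kind, then GAAA, searched on both strands with overlapping matches counted, was in 14 of the 29, or 48.3%, against 3.99% of 27025 genes with a promoter. A second motif, TTCNNNGAA, which reads the same on both strands and is the palindrome that Stat dimers bind, was in 9 of the 29, or 31.0%, against 9.55% of all genes. The windows below lie upstream of the start and show the different arrangements of the ISRE core, which stands in capitals. They run 5′ to 3′ on the gene's strand.
Isg15, chr4:156200861-156200910, minus strand: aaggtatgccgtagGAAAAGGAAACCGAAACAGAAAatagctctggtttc
Ifit3, chr19:34583359-34583430, plus strand: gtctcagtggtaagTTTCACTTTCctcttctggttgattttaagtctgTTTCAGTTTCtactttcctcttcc
Ifit1, chr19:34640771-34640827, plus strand: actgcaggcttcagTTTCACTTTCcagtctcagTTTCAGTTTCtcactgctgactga
Rsad2, chr12:26456549-26456586, minus strand: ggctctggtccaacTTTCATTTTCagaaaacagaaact
Oas3, chr5:120777711-120777748, minus strand: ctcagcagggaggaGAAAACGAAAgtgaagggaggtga
Oas1a, chr5:120907526-120907559, minus strand: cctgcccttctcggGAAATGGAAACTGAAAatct
Oas1g, chr5:120887614-120887645, minus strand: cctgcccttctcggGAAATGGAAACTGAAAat
Bst2, chr8:71537573-71537616, minus strand: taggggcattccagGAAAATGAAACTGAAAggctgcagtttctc
Trim30a, chr7:104465206-104465243, minus strand: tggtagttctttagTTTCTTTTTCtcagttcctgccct

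Isg15 held 3 overlapping cores within its window, Ifit3 and Ifit1 held 2 separate ones, and Bst2, Oas1a and Oas1g held 2 that overlap. The paralogs Oas1a and Oas1g, which neighbour each other, shared all 32 bases of the Oas1g window. In Ifih1, Ddx58, Eif2ak2, Trim21 and Ifitm3 the core began after the annotated start. The strongly induced Oasl1, Cmpk2 and Ifit2 had no exact core in their windows. Among members with a kept probe, the median log2 change with LPS in wild type was 1.78 for the 13 with the core and 1.89 for the 12 without it. Both are descriptions of a window, not of binding.

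**Figure D1:**
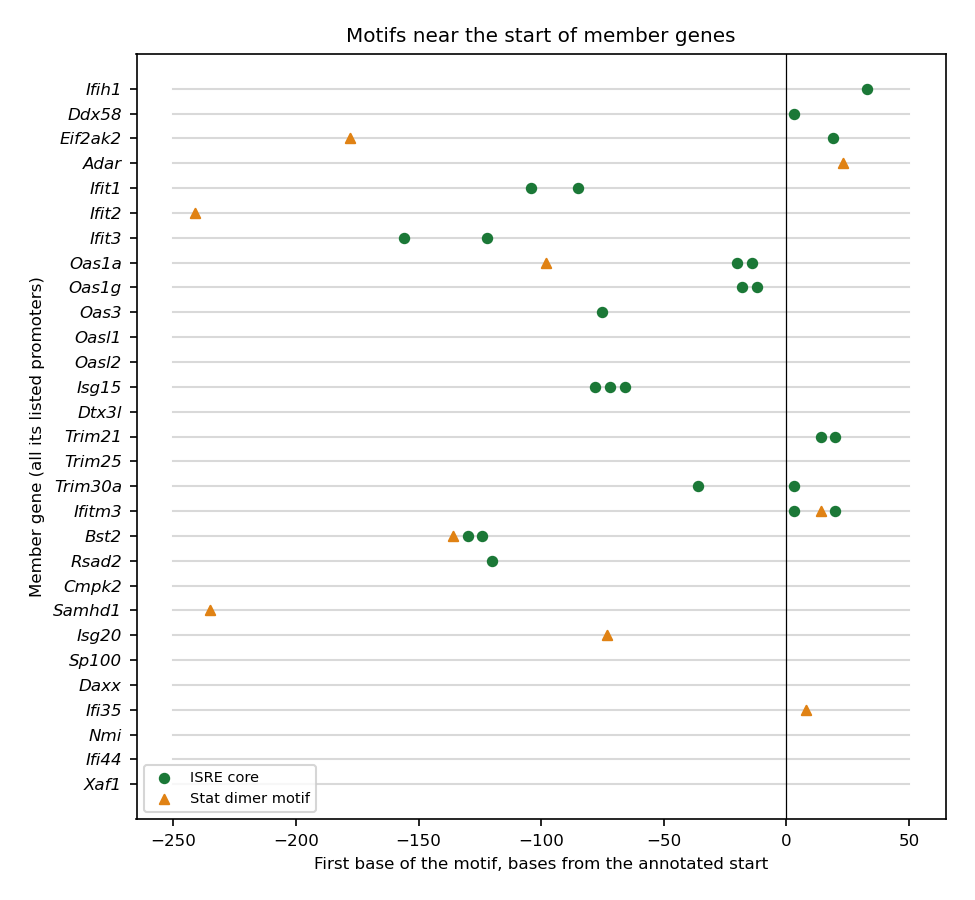
Positions of the ISRE core (circles) and of the Stat dimer motif (triangles) in 29 member genes, in bases from the annotated start, with all listed promoters of a gene on its line. Cores are present in 14 of 29 genes and lie on either side of the start, while Oasl1, Cmpk2 and Daxx show no mark.

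The first question was how the antiviral genes answered LPS in wild-type cells. They rose together: 31 of the 36 members with a kept probe passed the test (limma, with a Benjamini-Hochberg adjusted p below 0.05 and a change of 2-fold or more) and 0 fell. Of all 8306 genes 7.52% were called higher and 6.5% lower. Oasl1, Ifit2, Isg15, Mx2 and Rsad2 all had log2 changes above 3, on both arrays clear of both unstimulated arrays. Among the 31 members detected on all arrays, 27 rose. The median log2 change of the 36 was 1.83, or 1.82 with the undetected levels set at their bound, and that of all genes was -0.12.

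The same question in the labelled knockout gave 26 of 36 members higher and 0 lower, where 7.49% of all genes were called higher and 7.36% lower. Both counts of members use the brightest probe of a gene. Tested separately, some dimmer probes of Dhx58, Adar, Oas1g, Samhd1 and Trim25 were also called higher in the labelled knockout. In wild type such probes added only Oas1g. The genes at the top were largely those at the top in wild type, with Mx2, Rsad2, Ifit2, Cmpk2 and Isg15 between 3.63 and 4.09 on the log2 scale. Of the 31 members detected throughout, 22 rose. The median log2 change of the 36 was 1.62, or 1.56 with undetected levels at their bound, against -0.12 for all genes. The LPS comparisons of the genotypes share no array.

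**Figure D2:**
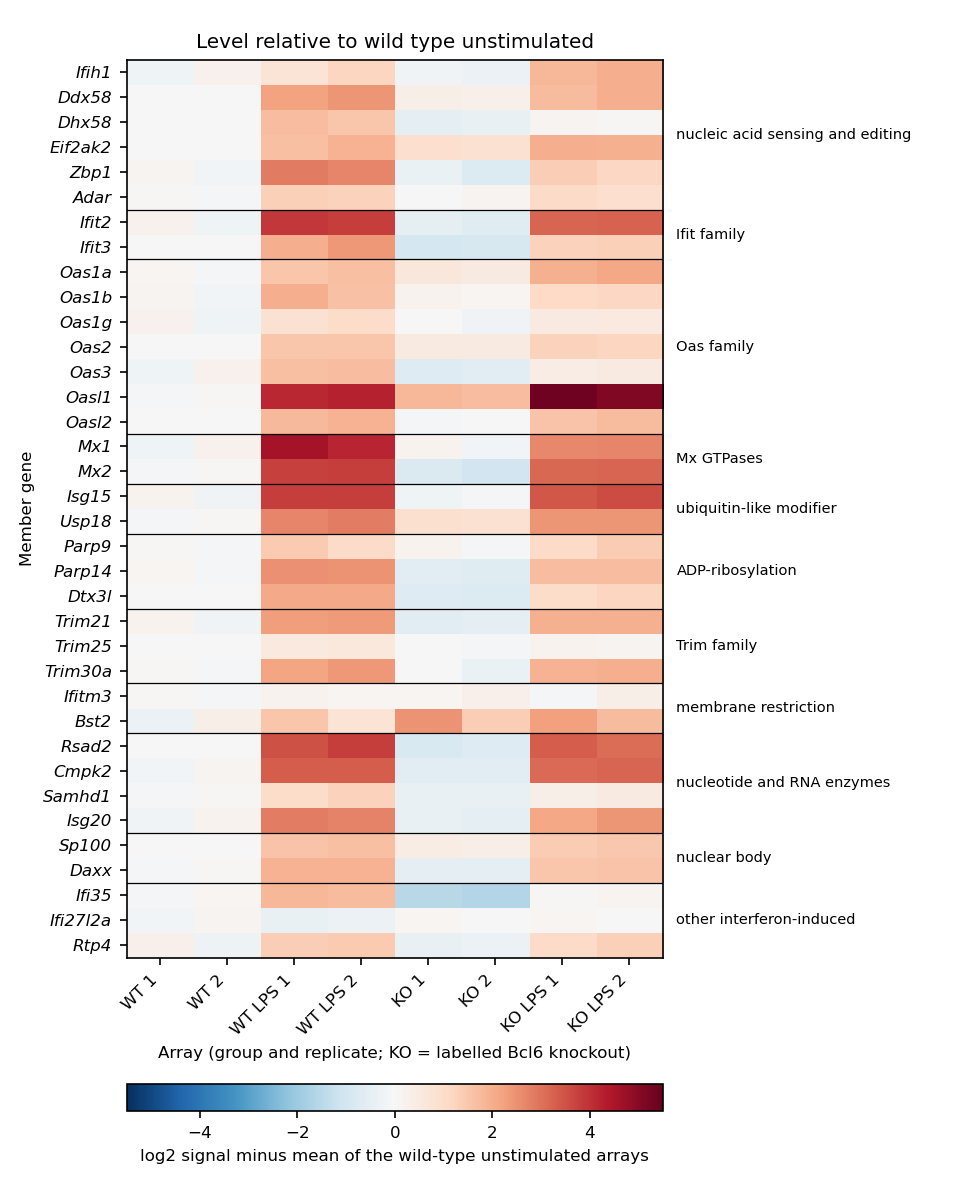
Log2 signal of the 36 members on each of the 8 arrays, relative to the mean of the wild-type unstimulated arrays, grouped by function. LPS columns are redder than unstimulated columns in both genotypes for most members, Ifitm3 and Ifi27l2a stay pale in all columns, and Ifi35 is blue in the unstimulated labelled knockout.

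How far the LPS effects of the genotypes differed was tested as a contrast of its own, and for most members the difference was not called. It was called for 4 of 36, against 3.83% of all genes. Among the 31 members detected on all 8 arrays it was called for 2, or 6.45%. Mx1, Usp18 and Dhx58 responded less in the labelled knockout, as did 1.87% of all genes, and Ifih1 responded more, as did 1.96% of all genes. The median difference was -0.20 log2 over the members and -0.01 over all genes, with 27 of 36 members below 0 against 50.7% of all genes. Of the 31 members that rose in wild type, 25 also rose in the labelled knockout, and their median difference was -0.17. The 594 other genes that rose in wild type had a median difference of -0.20, and 402 of them also rose in the labelled knockout. These medians share the wild-type arrays on which the genes were picked. The count of 4 became 2 without replicate 1 of wild type LPS and 2 with the authors' processed values, which keep Mx1 and Usp18.

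**Figure D3:**
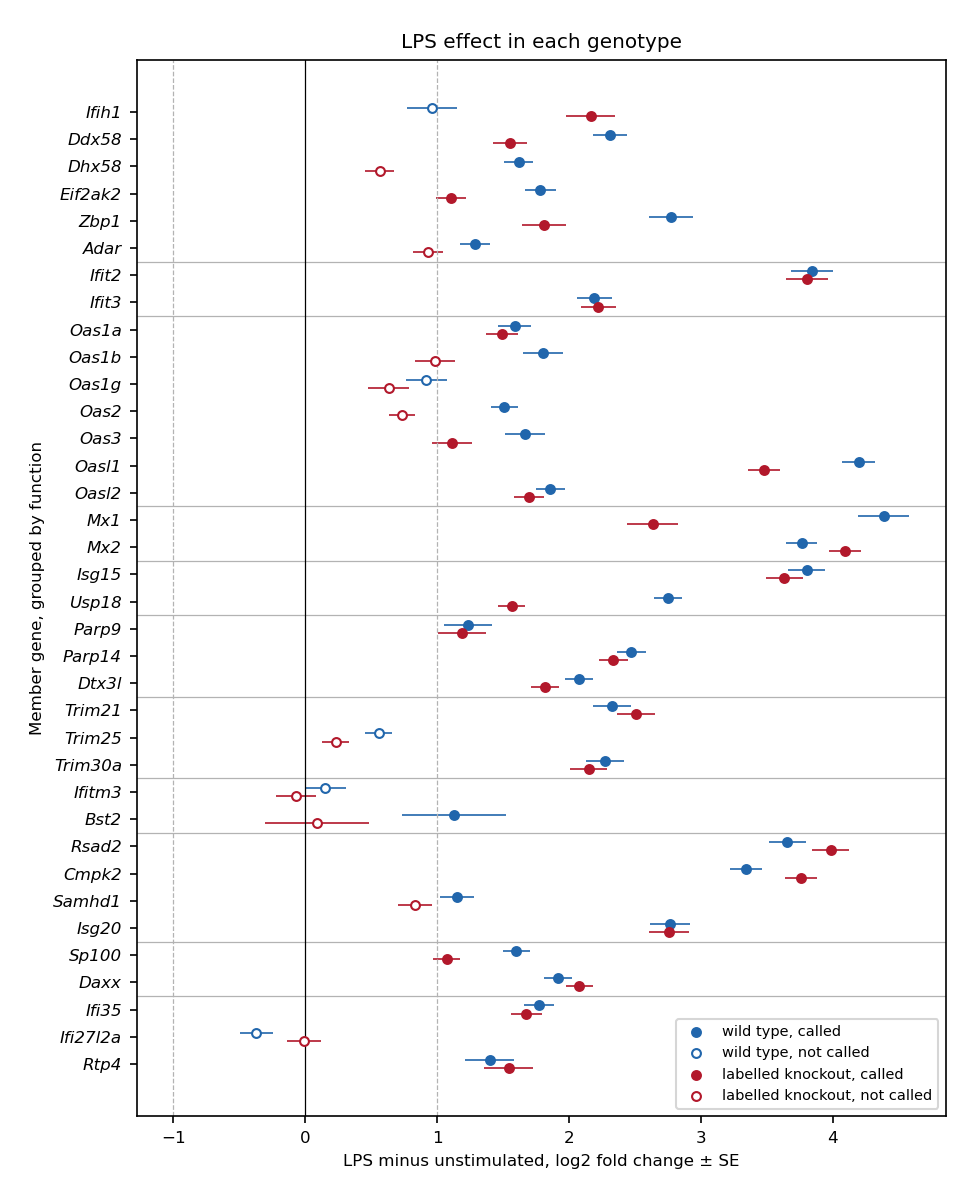
Log2 change with LPS ± SE for each of the 36 members in wild type (blue) and in the labelled knockout (red), with filled points called and dashed lines at a 2-fold change. The points of Ifit2, Ifit3, Isg20 and Parp9 nearly coincide, whereas those of Mx1, Usp18 and Dhx58 lie further left in the labelled knockout and that of Ifih1 further right.

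Sensors of viral nucleic acid come first by function. Ddx58, the helicase known as RIG-I, and Ifih1 bind viral RNA and signal to interferon genes, Dhx58 is a related helicase that tunes them, Eif2ak2 is the RNA-activated kinase that stops translation, Zbp1 senses Z-form nucleic acid and Adar edits RNA. In wild type 5 of these 6 rose, and in the labelled knockout 4 of 6. Zbp1 had log2 signals of 7.53 and 7.25 without LPS and 10.25 and 10.07 with it in wild type, and of 7.03 and 6.65 without and 8.76 and 8.53 with LPS in the labelled knockout. The 4 groups did not overlap, and the genotypes lay further apart with LPS than without. Zbp1 rose by 2.77 ± 0.17 and 1.81 ± 0.17 (SE), and the difference of -0.96 ± 0.24 (limma adjusted p = 0.0417) did not reach 2-fold.

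Dhx58 went from 9.62 and 9.60 to 11.32 and 11.14 in wild type, but from 9.12 and 9.20 only to 9.78 and 9.68 in the labelled knockout. The 4 groups did not overlap, and the labelled knockout lay below wild type in both treatments, further with LPS than without. The change was 1.62 ± 0.11 in wild type and 0.57 ± 0.11 in the labelled knockout, a difference of -1.05 ± 0.16 (limma adjusted p = 0.00639). This call was lost with the authors' processed values, with the mean of all probes (-0.54) and without replicate 1 of wild type LPS. The 4 probes of Dhx58 gave differences of -1.05, -0.80, -0.39 and 0.08, in order of brightness. In the labelled knockout the probes other than the brightest rose with LPS by 1.03, 1.65 and 1.06, all called when tested separately.

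Ifih1 had the opposite pattern at a low level. Its log2 signal was 4.80 and 5.26 in wild type unstimulated, 5.77 and 6.22 in wild type with LPS, 4.83 and 4.73 in the unstimulated labelled knockout and 6.87 and 7.02 in the labelled knockout with LPS. Neither unstimulated group was detected, and 1 of 2 wild-type LPS arrays was. In the labelled knockout LPS raised Ifih1 at least 2.19-fold (limma adjusted p = 2.74e-05). The fitted difference of 1.20 ± 0.26 (limma adjusted p = 0.0286) was called under only 6 of 18 alternatives. In the other sensors the LPS change was 2.31 ± 0.13 and 1.55 ± 0.13 for Ddx58, 1.78 ± 0.12 and 1.11 ± 0.12 for Eif2ak2 and 1.29 ± 0.11 and 0.93 ± 0.11 for Adar, in wild type and labelled knockout respectively. The last of these values was not called. Tested separately, the dimmer Adar probes gave 1.13, 1.02, 0.95 and -0.55 in the labelled knockout. Only 1.13 and 1.02 were called.

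Among the Ifit proteins, Ifit1 binds viral RNA that lacks the methyl marks of the host's own cap and keeps it from the ribosome. Ifit2 went from 10.34 and 9.86 to 13.98 and 13.91 in wild type and from 9.61 and 9.43 to 13.30 and 13.35 in the labelled knockout. LPS arrays stood clear of unstimulated arrays in both genotypes. It rose by 3.84 ± 0.16 and 3.81 ± 0.16, and the difference of -0.04 had a 95% confidence interval of -0.55 to 0.48. Ifit3, which lies beside Ifit2 in the genome, rose by 2.19 ± 0.13 and 2.22 ± 0.13, with a difference of 0.03. A second Ifit3 probe gave 3.34 and 2.37, a difference of -0.97. Ifit3 has a close copy, Ifit3b, and which of them each probe reads was not tested. The Ifit1 probe stayed below detection on all arrays, with log2 signals of 4.55 to 4.79, although its promoter holds 2 ISRE cores.

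The Oas enzymes make short oligoadenylates that activate an RNA-degrading nuclease. In this family 6 of 7 members rose in wild type and 4 of 7 in the labelled knockout, and all 7 fitted differences of the brightest probes were below 0, none of them called. They ran from -0.09 for Oas1a to -0.78 for Oas2, beside -0.82 for Oas1b, which was undetected in both unstimulated groups. Of the other kept probes of Oas1g, 1 gave -0.82 and the others 0.17 and 0.39. Oasl1 is a family member without the enzyme activity, known in mice to hold down translation of Irf7. It was high on every stimulated array and its resting level differed by genotype. Its signal was 8.01 and 8.14 in wild type unstimulated, 12.23 and 12.31 in wild type with LPS, 9.88 and 9.76 in the unstimulated labelled knockout and 13.41 and 13.18 in the labelled knockout with LPS. The 4 groups did not overlap. Oasl1 rose with LPS by 4.20 ± 0.12 in wild type and 3.48 ± 0.12 in the labelled knockout.

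Oas3, the largest Oas enzyme, had signals of 7.03 and 7.50, rising to 8.91 and 8.96 in wild type, and of 6.57 and 6.63, rising to 7.68 and 7.74 in the labelled knockout. Groups did not overlap, and the labelled knockout was the lower one in both treatments. Its changes were 1.67 ± 0.15 and 1.11 ± 0.15. Oas1a rose by 1.59 ± 0.12 and 1.49 ± 0.12 and Oasl2 by 1.86 ± 0.11 and 1.70 ± 0.11. Oas2 changed by 1.51 ± 0.10 in wild type, and its value of 0.73 ± 0.10 in the labelled knockout fell short of 2-fold. Oas1b, which carries an early stop codon in common laboratory strains, was at least 1.64-fold higher with LPS in wild type (limma adjusted p = 2.37e-05) and was detected on 1 of 2 LPS arrays of the labelled knockout. The value for Oas1g was 0.92 ± 0.16 in wild type, just inside 2-fold, and 0.63 ± 0.16 in the labelled knockout. Tested separately, its dimmer kept probes gave 1.09, 1.32 and 0.70 in wild type and 0.26, 1.49 and 1.10 in the labelled knockout. Of these, 0.70 and 0.26 were not called. Oas1a, Oas1b and Oas1g are close copies of each other, so their probes may share signal.

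The Mx proteins are GTPases that block viral nucleoproteins, and Mx1 is nuclear in mice. The Mx1 gene of C57BL/6 mice carries a deletion and gives no active protein, and the probe reads only its transcript. Mx1 signals were 4.68 and 5.15 in wild type unstimulated, 9.48 and 9.12 in wild type with LPS, 5.13 and 4.77 in the unstimulated labelled knockout and 7.56 and 7.61 in the labelled knockout with LPS. Both unstimulated groups were below detection, and the LPS groups did not overlap. The LPS response was at least 10.7-fold in wild-type cells and at least 3.41-fold in cells labelled knockout (limma adjusted p = 6.19e-07 and 9.56e-06). The fitted difference was -1.75 ± 0.27 (limma adjusted p = 0.00740), which was called in 18 of 18 alternatives and, with both baselines undetected, rests on the LPS arrays. Mx2, its relative in the cytoplasm, rose by 3.76 ± 0.12 and 4.09 ± 0.12, with a difference of 0.33 and a 95% interval of -0.06 to 0.71.

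Isg15 is a ubiquitin-like protein that is joined to other proteins during infection, and Usp18 removes it and also shuts off signalling at Ifnar2. Isg15 went from 8.62 and 8.26 to 12.25 and 12.24 in wild type and from 8.22 and 8.37 to 11.85 and 12.01 in the labelled knockout. The unstimulated groups overlapped and the LPS groups did not. It rose by 3.80 ± 0.14 and 3.63 ± 0.14, with a difference of -0.17 and a 95% interval of -0.62 to 0.28.

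Usp18, by contrast, went from 10.58 and 10.70 to 13.35 and 13.44 in wild type and from 11.51 and 11.50 to 13.09 and 13.05 in the labelled knockout. Its resting level was higher and its stimulated level slightly lower in the labelled knockout, with no overlap between groups. It rose by 2.75 ± 0.10 and 1.57 ± 0.10, a difference of -1.19 ± 0.15 (limma adjusted p = 0.00289). A second Usp18 probe gave -1.26. The call was lost only with median scaling, at -0.94, among 18 alternatives.

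Parp9 and Dtx3l form a complex of an ADP-ribosyltransferase relative with a ubiquitin ligase, and Parp14 attaches single ADP-ribose units. The 3 genes stand side by side in the genome, with Dtx3l between the others, and 3 of 3 rose in each genotype. Parp14 signals were 12.47 and 12.29, rising to 14.87 and 14.83 in wild type, and 11.80 and 11.71, rising to 14.10 and 14.09 in the labelled knockout. Groups did not overlap, and the labelled knockout lay below wild type in both treatments. Parp14 rose by 2.47 ± 0.11 and 2.34 ± 0.11 and Dtx3l by 2.08 ± 0.11 and 1.82 ± 0.11. Parp9 was near background, at least 1.26-fold and 1.32-fold higher with LPS, and not called without background correction in either genotype.

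Trim proteins are ubiquitin ligases. Trim21 binds antibody-coated virus in the cytosol, Trim25 acts on the Ddx58 pathway and Trim30a of mice restrains Toll-like receptor signalling. Trim21 went from 9.21 and 8.79 to 11.30 and 11.36 in wild type and from 8.41 and 8.46 to 10.95 and 10.94 in the labelled knockout. LPS arrays stood clear of unstimulated arrays in both genotypes. Trim21 rose by 2.33 ± 0.14 and 2.51 ± 0.14. Trim30a rose by 2.27 ± 0.14 and 2.15 ± 0.14. By its brightest probe Trim25 was not called in either genotype, at 0.56 ± 0.10 and 0.23 ± 0.10. A dimmer Trim25 probe, detected on 7 arrays, gave 0.59 in wild type, not called, and 1.01 in the labelled knockout, called when tested separately. No Trim gene had a called difference, with 95% intervals of the brightest probes from -0.65 at the lowest to 0.64 at the highest.

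Ifitm3 and Bst2 act on membranes: Ifitm3 keeps virus from fusing in endosomes, and Bst2, or tetherin, holds budding virus at the surface. Ifitm3 was already bright and was not called, with values of 0.15 ± 0.15 and -0.07 ± 0.15, although 2 ISRE cores follow its start. Bst2 had signals of 8.55 and 9.17 in wild type unstimulated, 10.37 and 9.61 in wild type with LPS, 11.35 and 10.21 in the unstimulated labelled knockout and 11.12 and 10.62 in the labelled knockout with LPS. Replicate arrays lay further apart than for any other member, and the labelled knockout groups overlapped. Bst2 rose in wild type by 1.13 ± 0.40 (limma adjusted p = 0.0422), a call kept in 12 of 19 alternatives and lost without replicate 1 of wild type unstimulated or of wild type LPS. In the labelled knockout the value was 0.09 ± 0.40.

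Among the enzymes of nucleotides and RNA, 4 of 4 rose in wild type and 3 of 4 in the labelled knockout. Rsad2, or viperin, makes a chain-ending nucleotide from CTP, and its neighbour Cmpk2 is a nucleotide kinase of mitochondria. Rsad2 went from 11.45 and 11.51 to 14.99 and 15.29 in wild type and from 10.65 and 10.76 to 14.81 and 14.56 in the labelled knockout. Resting levels were lower in the labelled knockout and the LPS levels lay closer together. Rsad2 rose by 3.66 ± 0.14 and 3.98 ± 0.14 and Cmpk2 by 3.34 ± 0.12 and 3.76 ± 0.12, with differences of 0.33 and 0.42 that were not called. The exonuclease gene Isg20 was undetected without LPS and at least 5.12-fold and 3.85-fold higher with it. Samhd1, which depletes nucleotides needed by viruses, rose by 1.15 ± 0.13 in wild type, and its value of 0.83 ± 0.13 in the labelled knockout was not called. Tested separately, its dimmer probes gave 0.56 and 0.89 in wild type, neither of them called. In the labelled knockout they gave 0.56 and 1.17, of which only 1.17 was called.

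Sp100 and Daxx belong to nuclear bodies that silence incoming viral DNA. Daxx went from 10.16 and 10.31 to 12.14 and 12.16 in wild type and from 9.69 and 9.69 to 11.75 and 11.78 in the labelled knockout. The 4 groups did not overlap, and the rises were 1.92 ± 0.10 and 2.08 ± 0.10. Sp100 rose by 1.60 ± 0.10 and 1.08 ± 0.10, the latter call being lost without background correction, with an offset of 50 and with the authors' processed values. Among the remaining genes, Rtp4 rose by 1.40 ± 0.18 and 1.54 ± 0.18. Ifi27l2a was bright on all arrays and was not called, at -0.37 ± 0.13 and -0.01 ± 0.13. Ifi35, which pairs with Nmi, rose by 1.77 ± 0.12 and 1.68 ± 0.12 from unequal starting levels.

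The next comparison set the labelled knockout against wild type without stimulation. Of 36 members 3 were called, against 8.5% of all genes. Bst2 and Oasl1 were higher, where 4.54% of all genes were, and Ifi35 was lower, where 3.96% of all genes were. Oasl1 changed by 1.75 ± 0.12 (limma adjusted p = 1.61e-05) and its 3 probes gave 1.75, 1.86 and 1.45. Bst2 changed by 1.92 ± 0.40 (limma adjusted p = 0.00609), with the spread described above. Bst2 also marks plasmacytoid dendritic cells, of whose 6 markers with a probe 3 were detected, namely Bst2 itself, Tcf4 and Pacsin1. The log2 of their summed signal was 10.61 and 10.92 in wild type and 11.87 and 11.10 in the labelled knockout. Tcf4 and Pacsin1 had values of -0.27 and -0.12 in this comparison and were not called. Siglech, Ccr9 and Klk1 were not detected, and the part of such cells was not tested. Ifi35 signals were 9.34 and 9.56 in wild type and 7.92 and 7.86 in the labelled knockout, a change of -1.56 ± 0.12 (limma adjusted p = 2.08e-05). Eif2ak2 and Usp18 had values of 0.89 ± 0.12 and 0.86 ± 0.10, and Ifit3 and Mx2 of -0.94 ± 0.13 and -0.91 ± 0.12, all within 2-fold. The brightest Samhd1 probe gave -0.42 and was not called. Tested separately, its dimmer probes gave -1.04, which was called, and 0.27, which was not. The median over the 36 was -0.17, or -0.08 with the 5 members undetected in both groups set to no change, and that over all genes was 0.00.

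With LPS, 6 of 36 members were called between the genotypes, against 11.2% of all genes. Mx1, Ifi35, Zbp1, Dhx58 and Oas3 were lower in the labelled knockout and Oasl1 was higher. The lower share was 5 of 36, where 4.97% of all genes were called lower and 6.19% higher. Ifi35 had signals of 11.27 and 11.19 in wild type and 9.53 and 9.61 in the labelled knockout, a change of -1.66 ± 0.12 (limma adjusted p = 1.15e-05). The gap of Ifi35 was thus of like size with and without LPS, and its LPS effects differed by -0.09, with a 95% interval of -0.47 to 0.28. Ifi35 was read by 1 probe.

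Among the others, Mx1 changed by -1.72 ± 0.19 (limma adjusted p = 0.000183), Dhx58 by -1.50 ± 0.11 (limma adjusted p = 1.64e-05), Zbp1 by -1.51 ± 0.17 (limma adjusted p = 0.000163) and Oas3 by -1.22 ± 0.15 (limma adjusted p = 0.000326). The other probes of Zbp1 gave 0.07 and -0.18, and with the mean of its probes the value was -0.54 and not called. The call was lost for Dhx58 too with the mean of its probes, at -0.98, and for Oas3 without background correction and with the authors' processed values, at -0.93 in both. Oasl1 changed by 1.03 ± 0.12 (limma adjusted p = 0.000271), which fell inside 2-fold without replicate 1 of wild type LPS, without replicate 1 of the labelled knockout with LPS, with the mean of all probes and with the authors' processed values. By their brightest probe the remaining 30 members lay within 2-fold or missed the test. Tested separately, a dimmer probe was called lower for Adar (-1.59), Ifit3 (-1.20), Parp14 (-1.10) and Samhd1 (-1.05). The dimmest probes of Parp14 and Samhd1 gave 0.42 and 0.55 and were not called. In all, 30 of 36 values were below 0, against 52.2% of all genes, with a median of -0.38 against -0.03. The comparisons with and without LPS share no array, whereas each LPS effect shares arrays with both of them.

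**Figure D4:**
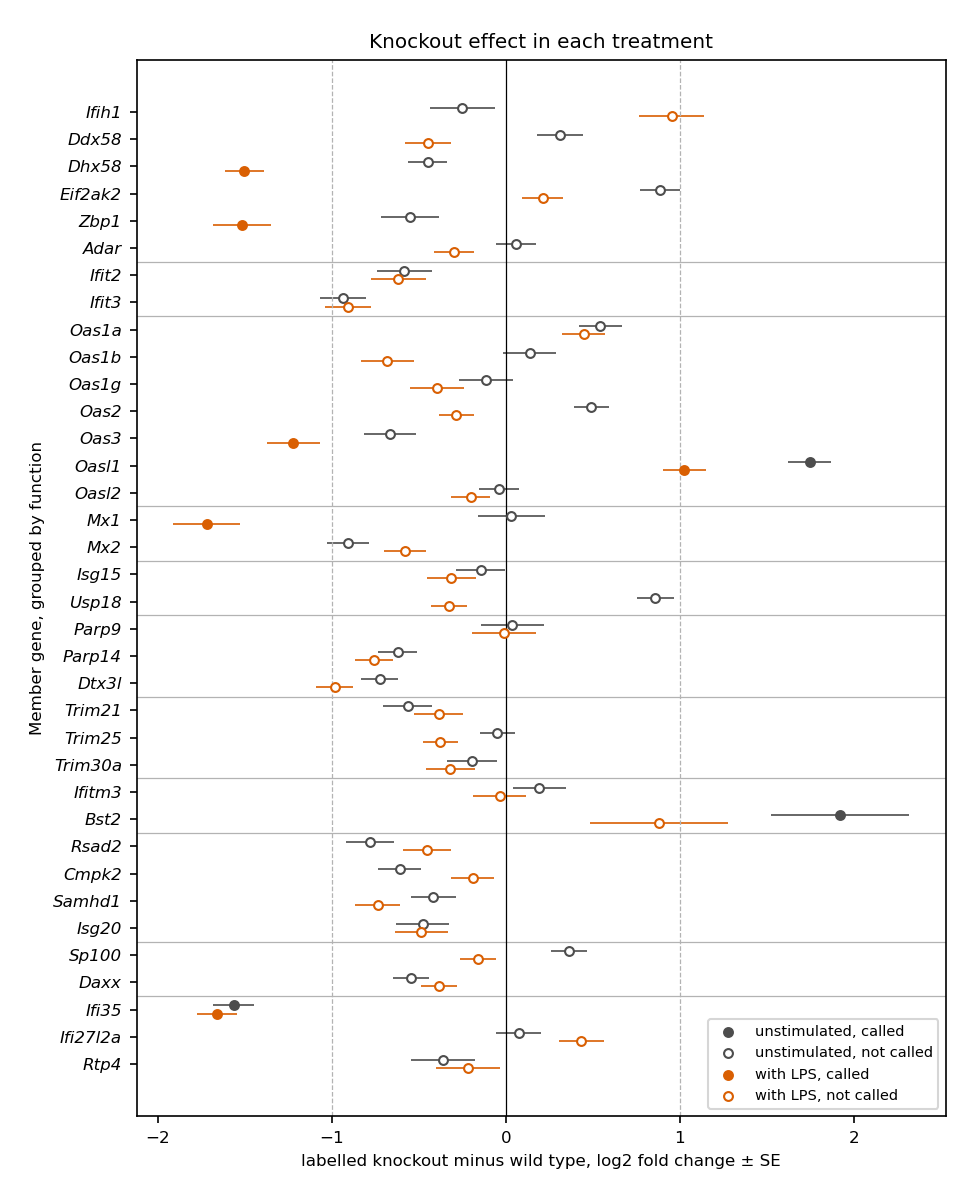
Log2 change between labelled knockout and wild type ± SE for the 36 members, unstimulated (grey) and with LPS (orange), with filled points called and dashed lines at a 2-fold change. Ifi35 lies at -1.56 and -1.66, Oasl1 at 1.75 and 1.03, and Mx1 moves from 0.03, where neither group was detected, to -1.72.

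Where a member had more than 1 kept probe, the probes allowed a check within the gene. This was so for 16 members. For LPS in wild type all kept probes of a member had the same sign in 15 of 16, the exception being Trim21, and in the labelled knockout in 15 of 16, the exception being Adar. For the difference of the LPS effect they had the same sign in only 7 of 16, and the largest range within a member was 1.70, in Adar. Among the 11 members with several probes detected on all 8 arrays, the signs were alike in 11 for LPS in each genotype and in 7 for the difference.

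**Figure D5:**
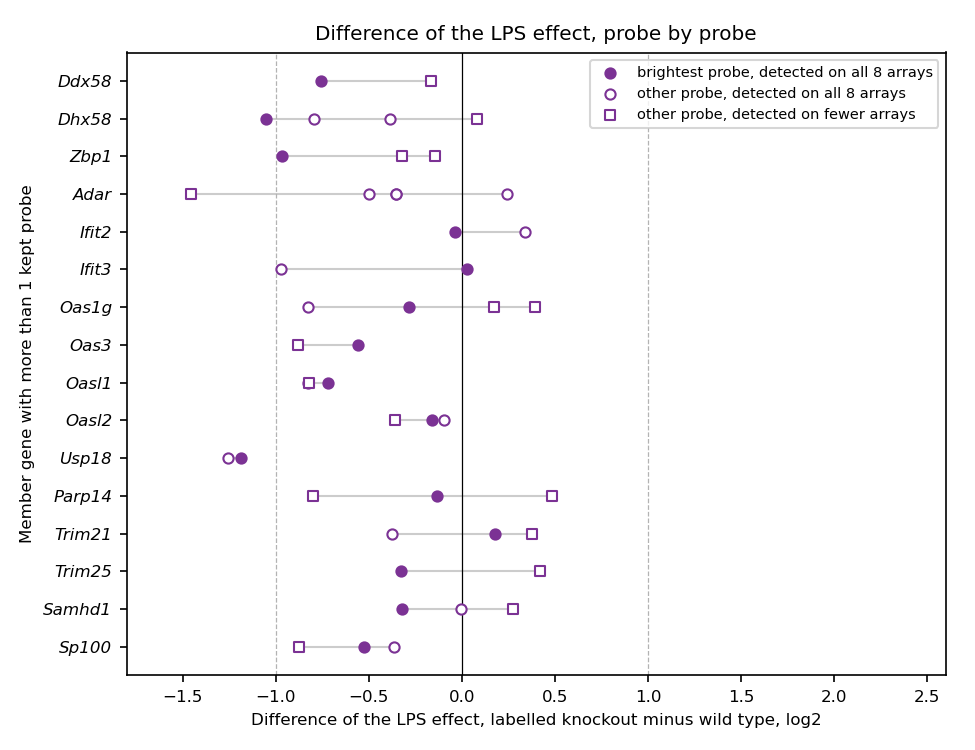
Difference of the LPS effect, labelled knockout minus wild type on the log2 scale, for each kept probe of the 16 members with more than 1, with the brightest probe filled and squares for probes detected on fewer than 8 arrays. The 2 probes of Usp18 lie at -1.19 and -1.26, whereas those of Dhx58 spread from -1.05 to 0.08.

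Genes that lead to or answer interferon signalling were read beside the members. Of 38 such genes outside the members, 23 had a kept probe. With LPS 4 of 23 rose in wild type and 7 of 23 in the labelled knockout, beside 7.52% and 7.49% of all genes, and 0 fell in either. Ifnb1, which encodes interferon-beta, had signals of 4.58 and 4.74 in wild type unstimulated, 5.02 and 5.94 in wild type with LPS, 4.52 and 4.51 in the unstimulated labelled knockout and 6.42 and 5.99 in the labelled knockout with LPS. It was detected on 1 of 2 wild-type LPS arrays and on both LPS arrays of the labelled knockout, where it was at least 1.31-fold higher than without LPS (limma adjusted p = 0.000925). Ifnb1 passed through LPS arrays only, so this rise follows in part from the filter. The transducer Stat2 rose by 1.87 ± 0.11 and 1.46 ± 0.11 and the kinase Tyk2 by 1.38 ± 0.14 and 1.36 ± 0.14. Socs3, a feedback inhibitor of cytokine receptors, rose by 4.77 ± 0.11 and 4.22 ± 0.11. Irf7, the factor that amplifies interferon production, rose by 1.38 ± 0.12 in wild type and had a value of 0.52 ± 0.12 in the labelled knockout, a difference of -0.86 ± 0.17 (limma adjusted p = 0.0194) that did not reach 2-fold. Ifnar2 rose in the labelled knockout, by 1.26 ± 0.11, and had a value of 0.34 ± 0.11 in wild type, a difference of 0.92 ± 0.16 that did not reach 2-fold.

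Unstimulated, 2 of 23 were higher and 2 lower in the labelled knockout, beside 4.54% and 3.96% of all genes. Irf7 changed by 1.17 ± 0.12 and the kinase gene Ikbke by -1.06 ± 0.11. Socs3 changed by 2.20 ± 0.11, and Ifngr1, a chain of the receptor for interferon-gamma, by -1.50 ± 0.13. With LPS 2 of 23 were higher and 2 lower, beside 6.19% and 4.97% of all genes. Socs1, which inhibits interferon receptor kinases, was undetected in wild type with LPS and exceeded it at least 2.26-fold in the labelled knockout (limma adjusted p = 0.000134). Socs3 changed by 1.65 ± 0.11, Ifngr1 by -2.25 ± 0.13 and the phosphatase gene Ptpn6 by -1.17 ± 0.12. Socs1 was the 1 of 23 with a called difference of the LPS effect, at 1.02 ± 0.20 (limma adjusted p = 0.0184), a share near the 3.83% of all genes. That gene was detected only on the 2 LPS arrays of the labelled knockout. Its higher value there follows in part from the filter.

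Granulocyte markers moved with the genotype beside these results. Their 10 kept genes were all called lower in the unstimulated labelled knockout, where 3.96% of all genes were. With LPS 4 of 10 were called lower, beside 4.97% of all genes. Elane, Cebpe, Prtn3 and Ctsg were detected on wild-type arrays only. The lower signal of these genes in the labelled knockout follows in part from the filter. The log2 of the summed signal of the 10 markers was 14.51 and 14.68 in wild type unstimulated. In wild type with LPS it was 14.21 and 14.22. In the labelled knockout it was 13.10 and 13.23 unstimulated and 13.30 and 13.40 with LPS. The part of these markers in the differences between genotypes was not tested.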

How the data were processed

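Per the file headers, the table the authors deposited gives 45281 probes on 8 arrays, each with a mean bead intensity that was not normalized between arrays and a detection p-value. A second deposited table holds the authors' processed intensity on a linear scale. The submitters' processing notes name GenomeStudio but no version, and no source used here gives the normalization method. Raw array medians were 112.1 to 130.2, and 11857 to 13209 probes were detected on an array. Arrays of a group correlated across genes with r of 0.993 to 0.995, and arrays of different groups with r of 0.882 to 0.953. Columns of other samples numbered 0.

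Raw values were background-corrected by the nec function of limma 3.58.1 (R 4.3.3) with an offset of 16, followed by quantile normalization on the log2 scale. Probes were named from the platform annotation, 34885 with 1 symbol, 18 with several and 10378 unnamed here. RefSeq for GRCm38.p6 gave current symbols for 34818 and was otherwise used for neighbours and promoters. The brightest kept probe stood for a gene. A single limma model over all 8 arrays, with a mean for each of 4 groups, had 4 residual and 4.57 prior degrees of freedom, and p-values were adjusted over all 8306 genes within each of 5 contrasts. For a group undetected on both arrays the fold is a bound. It sets the brighter group's mean against a floor for the dimmer group, which on each array is the lowest signal of any detected probe or, if higher, that of the probe. The number of arrays limits the precision. The fit was tested on simulated data.

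The members, gene lists and tests were chosen with earlier results of these data known. All members with a kept probe are named. Array values are given for members called between genotypes or in the difference, and for the member of each function with the largest LPS change in wild type.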

Additional observations from a re-analysis of the deposited data

Results flagged for a closer look

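For 5 genes the LPS effect differed between the genotypes by the test of the difference itself (limma, labelled knockout minus wild type, log2, n = 2 technical replicate arrays a group). The difference was -1.75 for Mx1, -1.19 for Usp18, -1.05 for Dhx58, 1.20 for Ifih1 and 1.02 for the pathway gene Socs1. These were 4 of 36 members and 1 of 23 pathway genes outside the members, beside 3.83% of all genes. Usp18 was detected on all 8 arrays and its 2 probes gave -1.19 and -1.26. Mx1, Ifih1 and Socs1 were below detection in both unstimulated groups, so their differences rest on the LPS arrays. Socs1 was undetected in wild type with LPS too. Its higher value in the labelled knockout follows in part from the filter. Dhx58 was detected on all 8 arrays by 3 of its 4 probes, and its dimmest probe gave 0.08. The calls of Mx1, Usp18, Dhx58 and Ifih1 held in 18, 17, 15 and 6 of 18 alternatives.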

How the results depend on the processing

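Numbers of members called are given in the order LPS in wild type, LPS in the labelled knockout, knockout effect unstimulated, knockout effect with LPS, and difference of the LPS effect, the counts being 31, 26, 3, 6 and 4 of 36. With every kept probe tested separately, 53, 50, 6, 12 and 5 of 66 probes were called. Of all 12542 kept probes with a gene, 13.8%, 14.3%, 8.03%, 11.6% and 4.23% were called. A member can then count more than once, and a probe other than the brightest can add a member. For the knockout effect with LPS such probes added Adar, Ifit3, Parp14 and Samhd1, and for the unstimulated effect Samhd1. For LPS they added Oas1g in wild type and Dhx58, Adar, Oas1g, Samhd1 and Trim25 in the labelled knockout. Without the 2-fold minimum the counts of the last 3 comparisons were 22, 23 and 9. With the authors' processed values the difference was called for 2 members and the knockout effect with LPS for 4, all lower. With the mean of all kept probes the latter was called for 4 members, 3 of them among the 6. Leaving out each array in turn gave 31 to 32, 26 to 27, 3 to 4, 6 to 7 and 2 to 5, the lowest difference count being without wild type LPS replicate 1; a lone array was then assumed to vary like the other groups. The replicate number as a block changed no count (31, 26, 3, 6 and 4). Arrays with the same number did not deviate together (r from -0.03 to 0.01 over 6 pairs of groups), so the numbers were not taken as pairs. No called member changed direction under the alternatives with 1 value a gene. Tested separately, 1 further probe each of Trim21 (LPS in wild type, -0.05 against 2.33), Zbp1 (knockout effect with LPS, 0.07 against -1.51) and Dhx58 (difference, 0.08 against -1.05) had the opposite sign, and none of these 3 probes was called. Calls for LPS were lost without background correction for Oas1b, Parp9, Bst2 and Rtp4 in wild type and for Ifih1, Oas3, Parp9, Sp100 and Rtp4 in the labelled knockout, and for Samhd1 in wild type with the mean of all kept probes. Over all genes, 1165, 1233, 706, 927 and 318 were called, against 635, 641, 327, 412 and 122 without background correction, 637, 651, 340, 419 and 120 with the authors' processed values and 4094, 4132, 3010, 3647 and 674 without the 2-fold minimum. For the difference 197 were called with an offset of 50, and 530 of 12542 probes were called when tested separately, with 1456 for the knockout effect with LPS.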
